A study of Bos taurus with 6 samples.

Results

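The miR-26 family was described from its 3 listed members, bta-miR-26a, bta-miR-26b and bta-miR-26c, which were taken by name from the 765 miRNAs of the deposited table, 596 of them named as bovine miRNAs. RNA of primary bovine myoblasts, the muscle precursor cells, was sequenced for mRNA and for miRNA. The cells came from the longissimus dorsi muscle of 90-day-old fetal cattle and were kept in differentiation medium (DM). The RSV group (n = 3) received 20 µM resveratrol, a plant polyphenol dissolved in DMSO, for 4 days. The DMSO group (n = 3) received the solvent alone, and the labels give no duration for it. The study describes each group as independent experiments, and the labels do not say whether cultures came from separate fetuses. Primary cells freed from tissue by digestion can hold other cell types. The order of the members' levels was bta-miR-26a, bta-miR-26c and bta-miR-26b in both groups.

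A mature miRNA guides an Argonaute protein to mRNAs that pair with the seed at its 5′ end, and the mRNA is then translated less or degraded. The genes of the miR-26 family lie in introns of the CTDSP genes, which encode small phosphatases of the RNA polymerase II tail. In myogenesis miR-26a is known for repressing EZH2, the histone methyltransferase of the Polycomb complex PRC2 that keeps muscle genes silent in undifferentiated cells, and in other tissues the family is known for repressing cell cycle genes.

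The table gave 1 value per miRNA and group, a mean over 3 libraries whose counts had been divided by a depth-dependent size factor. These values are called normalized reads here, and the log2 ratio is that of the RSV mean over the DMSO mean. The whole reads of single libraries could be computed back from miRNA means of up to 400 normalized reads, and the members lay far above this limit. The value of a member in a single library, its spread between cultures and a test of its difference were therefore not to be had. The miRNA group means summed to 6637955 normalized reads in the RSV group and 7340618 in the DMSO group, a log2 ratio of −0.15, so the scaling bears on each member's ratio. These sums count every row, also near-identical rows that can hold the same reads.

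bta-miR-26a was lower in the RSV mean than in the DMSO mean, at 99711 against 127429 normalized reads. This was a log2 ratio of −0.35, or 0.782 times the DMSO mean. The 95% interval of this log2 ratio was −0.36 to −0.35, from about 376000 and 315300 reads, and it covers counting error only, not the spread between cultures. bta-miR-26a was among the most abundant miRNAs of these cells, with rank 12 in the RSV group and rank 11 in the DMSO group. It held 1.502% of the summed miRNA group means in the RSV group and 1.74% in the DMSO group.

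bta-miR-26c had nearly the same values as bta-miR-26a, with 99699 normalized reads in the RSV group and 127414 in the DMSO group. Its log2 ratio was also −0.35, and its ranks of 13 and 12 followed directly on those of bta-miR-26a. The bta-miR-26c mean was 0.0127% under the bta-miR-26a mean in the RSV group and 0.0114% under it in the DMSO group. A gap this small could be turned back into whole reads under the assumption that no library held more bta-miR-26c than bta-miR-26a reads. The RSV libraries then differed by 25, 10 and 13 reads, and the DMSO libraries by 12, 14 and 10 reads, with 1 solution in each group. In sum the rows differed by 48 reads in the RSV group and 36 in the DMSO group. The RefSeq annotation of the assembly ARS-UCD2.0 is not the build of the deposited values. In it the genes MIR26A-1 and MIR26C had the same start and end inside CTDSPL, with strands not compared. The bta-miR-26a and bta-miR-26c rows can therefore hold the same reads, and they are not separate evidence of a difference between the groups.

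bta-miR-26b, the least abundant member, had 8259 normalized reads in the RSV group and 9119 in the DMSO group. Its log2 ratio was −0.14, or 0.906 times the DMSO mean, with a 95% interval of −0.17 to −0.12 for counting error only. Its ranks were 62 and 59, and it held 0.124% of the summed miRNA group means in either group. bta-miR-26a outnumbered bta-miR-26b 12.1-fold in the RSV group and 14.0-fold in the DMSO group, so that the log2 ratio of bta-miR-26a over bta-miR-26b was lower by 0.21 in the RSV mean. Rescaling a whole group leaves this difference as it is.

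Counted once, bta-miR-26a and bta-miR-26b together came to 107970 normalized reads in the RSV group and 136548 in the DMSO group, a log2 ratio of −0.34. The share of bta-miR-26b in this sum was 7.65% in the RSV group and 6.68% in the DMSO group. With bta-miR-26c added, the sum was 207669 against 263962 normalized reads, a log2 ratio of −0.35. bta-miR-26a thus set the level of the family, and its sum followed the ratio of that member.

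**Figure D1:**
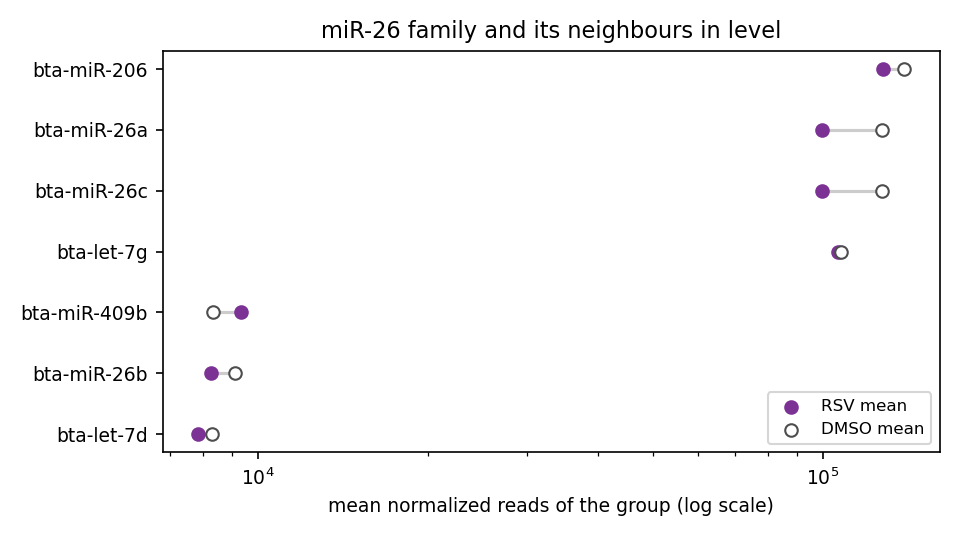
Mean normalized reads (log scale) in the RSV group (filled) and the DMSO group (open) for the 3 members and for the miRNAs next to them in the order of the mean over both groups; each point is the mean of 3 libraries and no spread is known. The points of bta-miR-26a and bta-miR-26c lie at the same 2 places, near 99699 and 127414 normalized reads, while those of bta-miR-26b lie near 8259 and 9119.

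The miRNAs next to the members in level differed less between the group means than bta-miR-26a did. bta-miR-206, a muscle miRNA, ranked next above it with 127629 normalized reads in the RSV group and 139464 in the DMSO group, a log2 ratio of −0.13. bta-let-7g, of the let-7 family, ranked next below bta-miR-26c with 106447 against 107714 normalized reads and a log2 ratio of −0.02. The DMSO means of bta-miR-206, bta-miR-26a and bta-let-7g fell in this order, whereas in the RSV group bta-let-7g stood above bta-miR-26a. Around bta-miR-26b, bta-miR-409b had 9316 against 8312 normalized reads (log2 ratio 0.16), and bta-let-7d had 7831 against 8304 (log2 ratio −0.08). Every miRNA ranked above bta-miR-26a in the mean over both groups was also lower in the RSV mean. Their log2 ratios ran from −0.05 for bta-miR-143 to −0.34 for bta-miR-199a-3p, so a lower RSV mean was not particular to bta-miR-26a at this level. Without values of single libraries it is not known which neighbours differ beyond their spread.

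The members were then read against all miRNAs that averaged at least 10 normalized reads over both groups, with a log2 ratio of 0.32 in size as the limit. Of these 391 miRNAs, 37 (9.46%) lay at or under −0.32 in log2 ratio, that is lower in the RSV mean, among them bta-miR-26a and bta-miR-26c but not bta-miR-26b. A further 56 lay at or over 0.32, so that 93 (23.8%) were past the limit in either direction. The median log2 ratio was 0.0049, and the ratios ran from −1.44 to 1.67. A lower ratio than that of bta-miR-26a was found for 28 of the 391 miRNAs (7.16%), and a lower ratio than that of bta-miR-26b for 112 (28.6%). The 28 include bta-miR-26c, and near-identical rows are counted separately here.

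Ratios past the lower limit were less frequent among abundant miRNAs, where bta-miR-26a and bta-miR-26c stood nearer to the edge. Of 146 miRNAs that averaged at least 1000 normalized reads, 7 (4.79%) were past it. In order of their log2 ratios these were bta-miR-199b (−0.46), bta-miR-3431 (−0.40), bta-miR-26c (−0.35), bta-miR-26a (−0.35), bta-miR-199a-3p (−0.34), bta-miR-3604 (−0.34) and bta-miR-452 (−0.34). This list holds 2 pairs of nearly identical rows, bta-miR-26a with bta-miR-26c and bta-miR-199a-3p with bta-miR-3604. bta-miR-26b had 40 of the 146 (27.4%) below it, and the median log2 ratio of the 146 was −0.02.

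**Figure D2:**
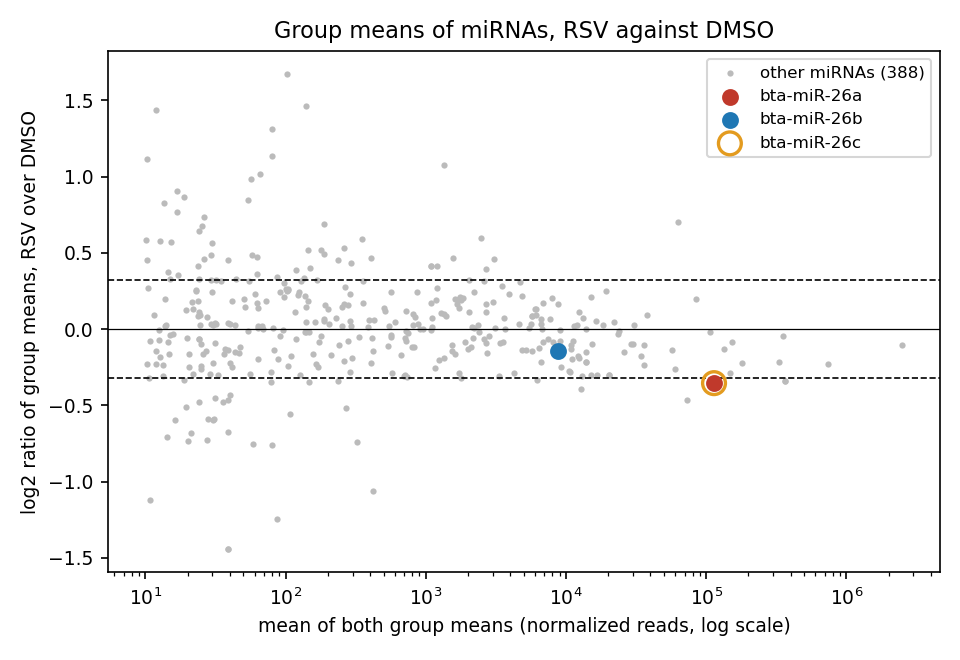
Log2 ratio of the RSV mean over the DMSO mean against the mean of both groups (normalized reads, log scale) for the 391 miRNAs with a mean of at least 10; dashed lines mark log2 ratios of 0.32 and −0.32, and the ring of bta-miR-26c surrounds the point of bta-miR-26a. bta-miR-26a and bta-miR-26c lie just below the lower line at −0.35 and bta-miR-26b lies inside both lines at −0.14.

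The scaling decided whether any member passed the limit. When each mean was taken as a share of the summed group means, the log2 ratio of bta-miR-26a and of bta-miR-26c was −0.21, inside the limit of −0.32. That of bta-miR-26b turned from −0.14 to 0.0022. Under this scaling the median log2 ratio of the 391 miRNAs was 0.15, and the distance of each member from the median was as before. The split of calls moved with it, from 39.8% lower among the 93 calls to 17.2% lower among 128, with 22 lower and 106 higher. Without the most abundant miRNA, bta-miR-21-5p, which held 36.1% of the RSV and 35.1% of the DMSO sum, the ratios were −0.19 for bta-miR-26a and bta-miR-26c and 0.02 for bta-miR-26b, and 14.6% of 137 calls were lower. The direction of bta-miR-26a and bta-miR-26c was the same under every scaling tried, and that of bta-miR-26b was not.

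**Figure D3:**
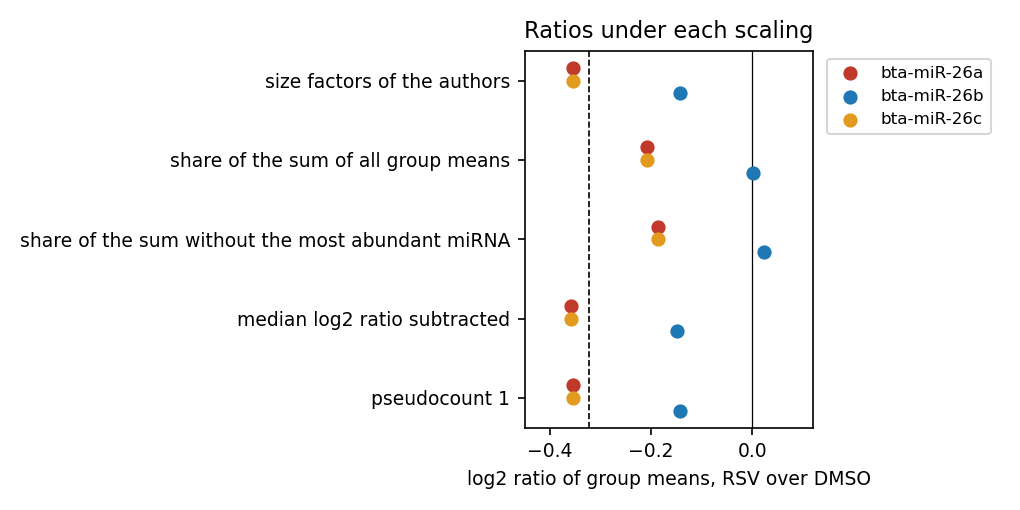
Log2 ratio of the RSV mean over the DMSO mean of the 3 members under the size factors of the authors and under 4 alternatives; the solid line marks 0 and the dashed line the limit of −0.32. bta-miR-26a and bta-miR-26c lie past the dashed line except when means are taken as shares of a sum (−0.21 and −0.19), where bta-miR-26b lies at 0.0022 and 0.02.

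The spread between libraries was known only for miRNAs less abundant than the members. Whole reads were recovered for 577 of the 583 miRNAs with means of up to 400 normalized reads, and 206 of them with a mean of at least 10 were compared with limma voom, a linear model on weighted log2 counts. At an adjusted p under 0.05 this called 17 of 206 (8.25%), 11 higher and 6 lower in the RSV group, and 57 had an unadjusted p under 0.05. The excess of higher calls rested on the settings, since 5 were higher and 6 lower with the summed recovered reads as library size, and 11 were higher and 12 lower without the filter on the mean. The number of calls was 3 without either the first or the second DMSO library and 4 without the third. For the 63 miRNAs with a mean of at least 100, the median standard error of the log2 ratio was 0.116, with 10% under 0.0944 and 10% over 0.156. Of these, 8 were called, the smallest at an absolute log2 ratio of 0.44. The largest ratio that was not called was 0.93, for bta-miR-451, whose standard error of 0.755 was far above the median. The ratios of bta-miR-26a (−0.35) and bta-miR-26b (−0.14) were smaller in size than that of any of these calls. Counting error is larger at these lower levels than for the members, so this does not say whether a member's ratio would be called. The smallest call also moved with the setting, to 0.38 among the 206 with the summed recovered reads as library size. The measures differ, since the members' ratios are of group means and limma voom fits log2 counts of single libraries. For bta-miR-451 the ratio of means was 1.46 and the fitted value 0.93. Whether the spread of the members is like that of these less abundant miRNAs was not tested.

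A group mean can rest on a single library, as the marker miRNAs fixed for other cell types showed. bta-miR-451, a miRNA of red blood cells, had 66.8, 463 and 81.3 normalized reads with RSV and 70.5, 53.4 and 97.4 with DMSO. bta-miR-122, a liver miRNA, had 200, 26.3 and 38.5 against 26.03, 17.0 and 87.8 normalized reads. The high RSV library was the second one for bta-miR-451 and the first for bta-miR-122, and the other RSV libraries lay within the DMSO range. bta-miR-486, also of blood, had 558 against 572 normalized reads, and bta-miR-144 was not analysed here, so that 1 of the 2 blood markers with values was higher in the RSV mean. The muscle miRNAs were abundant in both groups, with 28912 against 30883 normalized reads for bta-miR-1 and 7817 against 7453 for bta-miR-133a. The part of other cell types, or of a single library, in the lower bta-miR-26a mean was not tested, and fewer cells with a miRNA and less of it per cell cannot be told apart in bulk RNA.

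The host genes and targets of the family were followed in the mRNA part, from a list of 33 genes made up of hosts, published targets, partners of EZH2 in PRC2 and muscle regulators. Identifiers could be paired with names for 8 of the 33 genes, through the study's sheet of mRNAs that it called different between the groups. These 8 were thus chosen on the same samples, and their directions are a description without a test. EZH2, the host CTDSPL and the muscle regulator MYOD1 were among the 25 genes not analysed here. Reads of single libraries were recovered for 7 of the 8, and not for PLOD2, a collagen lysyl hydroxylase.

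Both hosts with values were lower in every RSV library than in any DMSO library. CTDSP1 (ENSBTAG00000008362), which holds MIR26B, had 1476, 1633 and 1342 normalized reads with RSV and 1833, 2053 and 2031 with DMSO, a log2 ratio of −0.41 between the means. CTDSP2 (ENSBTAG00000016508), which holds MIR26A-2, had 4991, 4987 and 4215 against 6276, 6556 and 6256 normalized reads, a log2 ratio of −0.43. Over all 12966 mRNAs with recovered reads and a mean of at least 10, such a full separation towards lower RSV values was found for 3022 (23.3%), and the median log2 ratio was 0.03. Apart from list genes, these mRNAs had group means of up to 2000 normalized reads, and CTDSP2 lay above this. Both hosts were named through the study's own calls on these samples, so their separation is no test against this share. bta-miR-26a and bta-miR-26b, for which the log2 ratios were −0.35 and −0.14 under the size factors, thus had lower means in the same samples as these hosts, with miRNAs and mRNAs normalized apart and the direction of bta-miR-26b resting on the scaling. Mature bta-miR-26a can come from CTDSPL as well as from CTDSP2, and the rows do not separate these sources.

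Among the 5 published targets with recovered reads, 4 were higher in every RSV library than in any DMSO library, and full separation towards higher RSV values was found for 3593 of the 12966 mRNAs (27.7%). All 5 were named through the study's own calls on these samples, so their separation is no test against this share. CCNE2 (ENSBTAG00000004906), a cyclin that drives entry into S phase, had 185, 190 and 214 normalized reads with RSV and 89.2, 92.8 and 66.6 with DMSO, a log2 ratio of 1.245. CCNE1 (ENSBTAG00000004735), the other E-type cyclin, had 112, 101 and 133 against 69.5, 50.02 and 56.4 normalized reads, a log2 ratio of 0.97. Both cyclins thus lay higher in the RSV group without overlap between the libraries.

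ULK1 (ENSBTAG00000012987), a kinase that starts autophagy, had 1945, 1938 and 2278 normalized reads with RSV and 1200, 1227 and 1130 with DMSO, a log2 ratio of 0.79. HMGA1 (ENSBTAG00000034529), an architectural chromatin protein, had 1062, 1057 and 1187 against 610, 711 and 671 normalized reads, a log2 ratio of 0.73. The target that lay the other way was HGF (ENSBTAG00000017664), a growth factor that activates muscle satellite cells. It had 23.0, 26.8 and 22.8 normalized reads with RSV and 77.8, 88.6 and 71.1 with DMSO, a log2 ratio of −1.71. Because all of these genes were named through the study's own calls, nothing about the targets of miR-26 as a whole can be read from this count of 4 against 1.

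**Figure D4:**
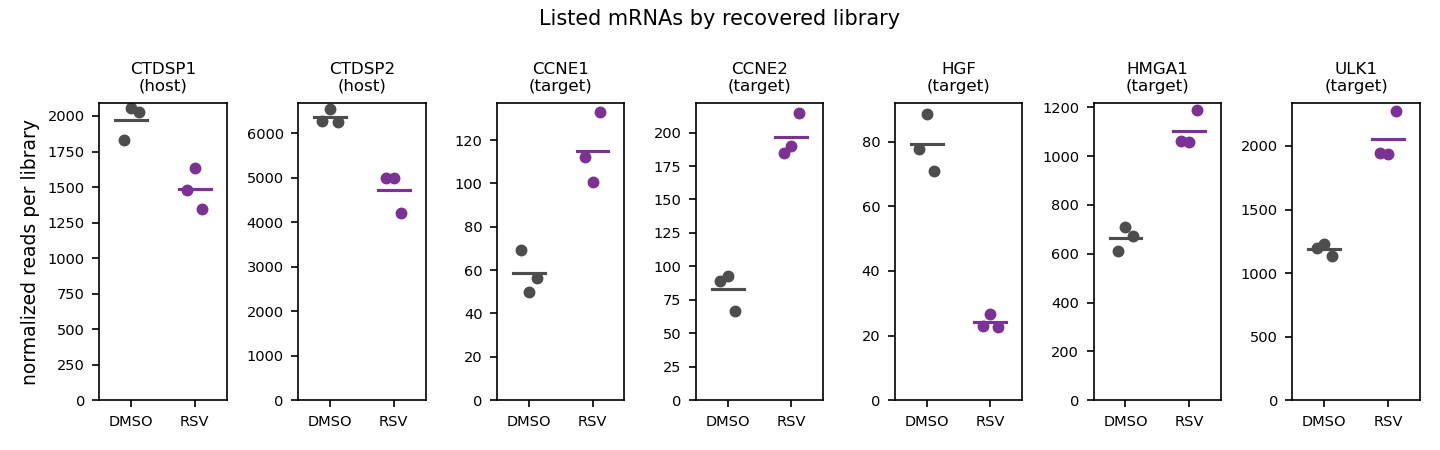
Normalized reads per library of the 7 listed mRNAs with recovered reads, 3 DMSO and 3 RSV libraries each, with a line at the group mean; libraries carry no replicate number and each panel has its own axis from 0. The hosts CTDSP1 and CTDSP2 and the target HGF lie lower in all 3 RSV libraries, and CCNE1, CCNE2, HMGA1 and ULK1 lie higher in all 3.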

How the data were processed

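RNA of 3 RSV and 3 DMSO cultures was sequenced for mRNA and miRNA; groups follow the treatment in the labels. The authors filtered the reads, mapped miRNA reads to UMD_3.1.1/bosTau8 with Bowtie 0.12.9, named known miRNAs by miRBase 20.0 and compared the groups with DESeq. The mRNA aligner and counter are not given in the sources used here. The deposited table holds mean normalized read counts per group for 26332 mRNAs and 765 miRNAs, and the authors' own fold changes and p-values, which were not used. In the mRNA rows the decimal point of most values from 1 upwards was missing.

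Members and lists were chosen with earlier results of these data known. The text names the members, their neighbours in level, marker miRNAs and list genes with a name. Other miRNAs with the seed of a member were not analysed here, and the seeds of the members were not compared. The 7 abundant miRNAs past the fold, bta-miR-21-5p and bta-miR-143 were named after their values were seen. Each mean was written as a sum of whole reads over recovered size factors (0.729 to 1.54 for miRNAs, 0.886 to 1.09 for mRNAs), and a unique solution was kept, for miRNA means up to 400, mRNA means up to 2000 and list genes up to 10000. The lost decimal was placed where whole reads resulted. In simulated data 1931 of 1931 miRNA means and 1936 of 1937 mRNA means gave the right reads. The simulation was made for means under the limits of 400 and 2000, and it did not check list genes with higher means. Recovered libraries carry no replicate number. Reads were fitted with limma 3.58.1 (voom, R 4.3.3) with Benjamini-Hochberg adjustment over 206 miRNAs with a mean of at least 10. Members had no recovered reads and no test: their ratios were set against the share of all miRNAs past a log2 ratio of 0.32 in size. The depth of single libraries is not in the table, but the recovered size factors were higher in every RSV library than in any DMSO library. They were 0.935 to 1.54 against 0.729 to 0.922 for miRNAs, and 1.05 to 1.09 against 0.886 to 0.964 for mRNAs. Host positions came from RefSeq (ARS-UCD2.0), where 590 of 596 bovine miRNA names matched; it matched no mRNA identifier. Other steps used Python 3.11.15, numpy 2.4.6, numba 0.67.0 and matplotlib 3.10.9. Alternatives were other scalings, a pseudocount, folds, filters, library sizes and libraries left out.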

Additional observations from a re-analysis of the deposited data

How the results depend on the processing

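With each mean as a share of the summed group means, the log2 ratio was −0.21 for bta-miR-26a, 0.0022 for bta-miR-26b and −0.21 for bta-miR-26c; with the most abundant miRNA left out of the sum, these were −0.19, 0.024 and −0.19. The ratios moved by less than 0.01 with the median subtracted or a pseudocount of 1. Past the log2 limit of 0.32 lay 93 of 391 miRNAs, past 1.1-fold 240 and past 1.5-fold 38. Without a filter 297 of 673 were past the log2 limit, and with a mean of at least 100, 36 of 248. Under the share scalings, chosen after seeing the data for this count, 128 and 137 were past it. limma voom called 17 miRNAs, 11 with the summed reads as library size, 23 without a filter, and 3 to 19 with a library left out. The family sum kept its log2 ratio of −0.35 to within 0.01 when bta-miR-26c was left out (−0.34).

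No paired analysis was possible because the table holds group means alone and recovered libraries have no number. Spread between cultures was not known for any member.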

Other observations

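The bta-miR-26a and bta-miR-26c rows were 1 of 7 pairs of miRNAs that averaged at least 10 normalized reads whose means lay less than 0.1% apart in both groups. Of these pairs, bta-miR-26a with bta-miR-26c had the same ends in RefSeq (ARS-UCD2.0), 5 overlapped and 1 lay apart. The overlapping pairs were bta-let-7b with bta-miR-3596, bta-miR-152 with bta-miR-2957, bta-miR-199a-3p with bta-miR-3604, bta-miR-22-3p with bta-miR-3600 and bta-miR-3601 with bta-miR-542-5p. The pair that lay apart was bta-miR-1814c with bta-miR-2310, with 20.8 normalized reads in the RSV group and 56.5 in the DMSO group for either. bta-let-7b and bta-miR-3596 had the same 12896 normalized reads in the RSV group and 14991 in the DMSO group, whereas bta-miR-26a and bta-miR-26c differed by 12.6 and 14.6 normalized reads.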
